A study of Mus musculus with 9 samples.

Results

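A set of 10 genes that mark progenitor cells of the salivary gland or set the fate of its duct cells were followed after irradiation: Kit, Kitl, Sox2, Sox9, Trp63, Ascl3, Tfcp2l1, Foxi1, Prom1 and Ly6a. They were chosen by name, with earlier results of these data known, and make up 10 of the 54532 gene identifiers in the count table. All 10 had at least 1 count in the 9 libraries together, and 9 of them were among the 15224 genes with enough counts to be tested; Sox2 was not. The samples were submandibular glands of wild-type (WT) mice that had all received 10 Gy of radiation, taken 30, 60 or 90 days later, with 3 samples at each time. The series set out to follow the degeneration of the gland to its permanent loss of function. Every comparison here is between irradiated time points. Non-irradiated glands, which the extraction protocol also names, were not analysed here, so no value below says what radiation did, and time since irradiation cannot be told apart from the animals' ageing. The labels leave unsaid whether samples came from separate mice, so p-values measure the spread between these samples.

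The submandibular gland is built from acini, which make saliva, and ducts, which modify and carry it. In the ducts, Kit-bearing cells sit mainly in the intercalated segment next to the acini, and p63-bearing cells lie at the base of the larger ducts; both have been studied as sources of new duct and acinar cells after injury. A small group of duct cells that carry Foxi1 and Ascl3 resembles the ionocytes of the airway and kidney, cells rich in proton pumps and chloride channels. Sox2 and Sox9 are transcription factors of the embryonic gland bud, and Prom1 (CD133) and Ly6a (Sca-1) are surface proteins used to sort progenitor cells in many tissues.

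Libraries held 16541396 to 17179500 counts at 30 days, 21722141 to 24880803 at 60 days and 20410818 to 26065856 at 90 days, so the earliest group was the shallowest. Mucl2, a secretory gene of submandibular acini, took 31.4% to 42.8% of all counts. The 7 genes listed for the sublingual gland, Lyz1 and Lyz2 among them, together measured 57.6 to 144 CPM. That sum is not a measure of sublingual tissue alone. Levels are given as CPM, counts scaled to 1e+06 per library after TMM normalisation (trimmed mean of M-values). Tests are edgeR's quasi-likelihood test, with p-values adjusted over all 15224 genes by the Benjamini-Hochberg method and a threshold of 0.05. In bulk tissue, fewer cells of a type and less RNA per cell cannot be told apart.

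Trp63 was the only member to pass the test in any pairwise comparison. It encodes p63, the transcription factor that maintains basal cells of stratified and ductal epithelium. The gene (ENSMUSG00000022510) lies on the plus strand of chromosome 16, 25683763 to 25892102 in GRCm38, and has alternative start codons that give proteins with different front ends. The forms are shown because the deposited counts are per gene and cannot separate them. In GENCODE M21, 4 transcripts begin their coding sequence at 25684290 and encode the longer TA form, and 4 begin at 25802060, inside the gene, and encode the ΔN form that basal epithelia mainly use. The first 60 coding bases of each are given 5′ to 3′ with the start codon in capitals.
TA start of Trp63: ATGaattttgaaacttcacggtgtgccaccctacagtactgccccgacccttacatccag
ΔN start of Trp63: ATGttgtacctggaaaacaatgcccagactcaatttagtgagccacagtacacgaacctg

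At 30 days Trp63 measured 10.1, 9.99 and 14.1 CPM in samples 1, 2 and 3. At 60 days it measured 9.19, 12.6 and 14.7 CPM. At 90 days it measured 16.3, 27.6 and 21.0 CPM. All 3 values at 90 days lay above all 6 earlier values, while the 30-day and 60-day values overlapped. These levels rest on 142 to 804 reads per library. Means were 11.4 ± 2.38, 12.2 ± 2.77 and 21.6 ± 5.70 CPM (SD, n = 3 each). From 30 to 90 days Trp63 rose by 0.92 ± 0.21 on the log2 scale (SE; 95% interval 0.46 to 1.38), or 1.89-fold (adjusted p = 0.0289). Between 60 and 90 days the log2 difference was 0.83 ± 0.21, which did not pass (adjusted p = 0.150), and between 30 and 60 days it was 0.09 ± 0.22 (adjusted p = 0.916). The test of any difference among the 3 times also called Trp63 (adjusted p = 0.0354).

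The Trp63 call was not secure against single libraries. Without 90-day sample 2, its highest library, the log2 difference between 90 and 30 days was 0.70 (adjusted p = 0.115). It was also lost without 30-day sample 1 (0.84, adjusted p = 0.150), 30-day sample 2 (0.83, adjusted p = 0.124), 60-day sample 2 (0.92, adjusted p = 0.0530) or 90-day sample 3 (0.94, adjusted p = 0.0808), and with limma-voom (0.90, adjusted p = 0.0553). The difference was positive in each of these fits, and with DESeq2 it passed (adjusted p = 0.00146). 90-day sample 2 also held the highest summed level of 9 lymphocyte markers (38.9 CPM, against 10.9 to 26.9 in the other 8 libraries) and of 22 interferon-stimulated genes (597 CPM, against 281 to 476). Their part in the Trp63 result was not tested.

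**Figure D1:**
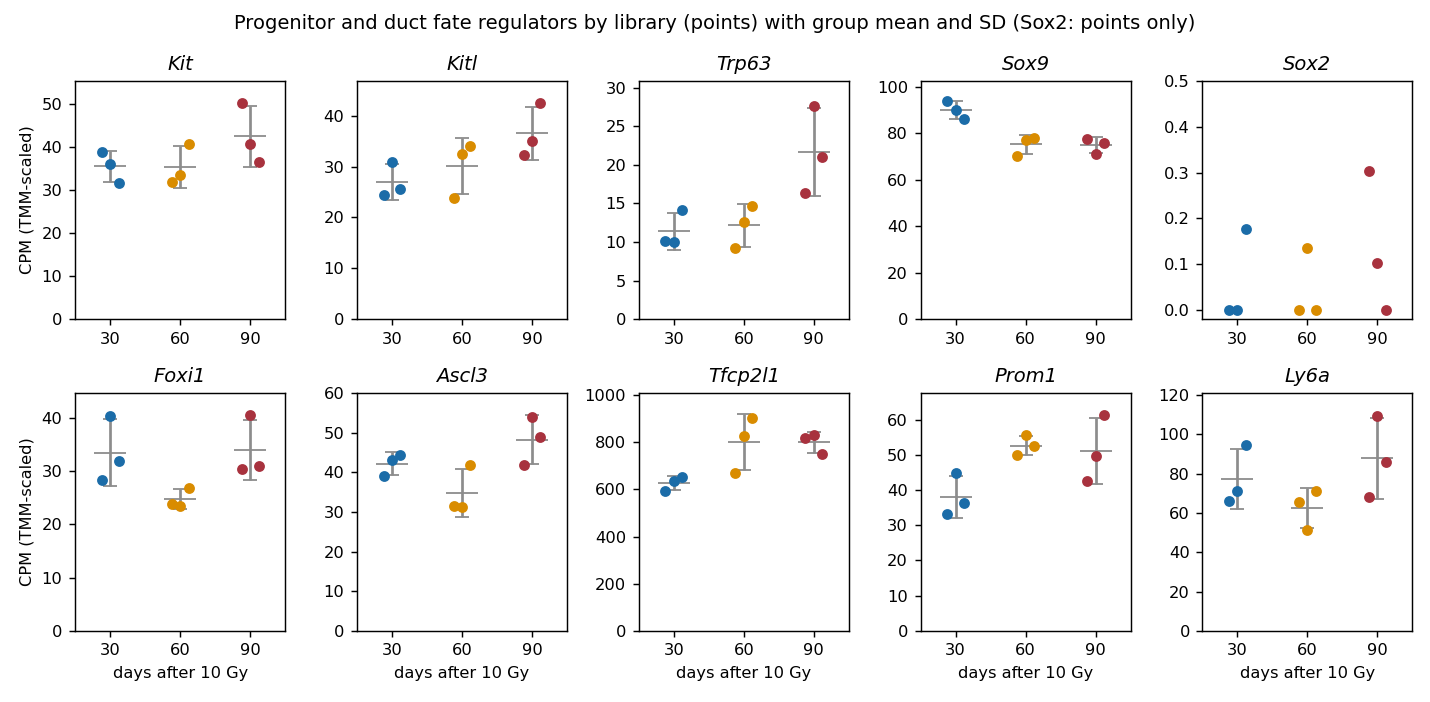
Level of each of the 10 genes in every library, in TMM-scaled CPM (vertical axes, starting at 0 except for a small margin in Sox2), against days after 10 Gy; points are libraries, in sample order within a time, and grey bars are the group mean and SD (no mean is drawn for Sox2). The 3 Trp63 values at 90 days, 16.3 to 27.6 CPM, lie above the 6 earlier ones, and all 3 Sox9 values at 30 days lie above the 6 later ones.

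Genes of basal duct cells and of the p63 programme were described from a list of 24 that does not include Trp63. After the filter 21 were tested. In the comparison of 90 with 30 days, 3 of the 21 rose and 0 fell, where 1.81% of all tested genes rose and 1.77% fell. The 3 were Ngfr, the low-affinity neurotrophin receptor of basal and myoepithelial cells, Sfn, which encodes stratifin, a p53-responsive adaptor protein of epithelia, and Pkp1, a desmosome plaque protein. Of the 21, 19 had a positive log2 difference, beside 52.1% of all genes, with a median of 0.34 against 0.01 over all genes. The shift was not particular to this list. Of 8 myoepithelial genes tested, 8 were positive in the same comparison, with a median of 0.39. Of these, 7 had an unadjusted p under 0.05 and 1 passed. Krt14 is in both lists.

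In time order, Ngfr measured 48.8 ± 13.8, 111 ± 5.99 and 92.4 ± 18.1 CPM (SD over 3 libraries). It rose by 1.18 ± 0.20 on the log2 scale by 60 days (adjusted p = 0.0134), and its difference from 30 days was 0.92 ± 0.20 at 90 days (adjusted p = 0.0276). The 60-day call of Ngfr was lost without any 1 of the 60-day samples (adjusted p 0.0610 to 0.0776), and the 90-day call with the 6 samples alone (adjusted p = 0.119) or without 60-day sample 1 or 3 or 90-day sample 2 or 3 (adjusted p 0.0628 to 0.104). Sfn measured 7.25 ± 1.69, 9.06 ± 1.87 and 13.8 ± 2.78 CPM, a rise of 0.92 ± 0.20 by 90 days (adjusted p = 0.0170; 0.0869 to 0.105 without 30-day sample 1, 90-day sample 2 or 90-day sample 3). Pkp1 measured 61.8 ± 11.6, 81.1 ± 4.97 and 90.0 ± 8.04 CPM, a rise of 0.54 ± 0.12 by 90 days (adjusted p = 0.0182; 0.0648 to 0.118 without 30-day sample 1, 30-day sample 2 or 90-day sample 3). Ngfr was the 1 gene of the list called at 60 days, where 1.14% of all genes rose. Between 60 and 90 days 0 were called by edgeR, DESeq2 or limma-voom, where edgeR called 0.256% of all genes. At an unadjusted p under 0.05 there were 3 of the 21 in that step, beside 10.8% of all genes. Between 30 and 90 days there were 12, beside 16.8% of all genes.

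Krt5 and Krt14, keratins that define basal duct cells and were named after their values were seen, did not pass. Krt5 measured 27.6 ± 4.16, 27.0 ± 2.45 and 39.2 ± 8.20 CPM, and all 3 of its 90-day values lay above the 6 earlier ones (90 against 30 days, log2 0.51 ± 0.14, adjusted p = 0.0609). Krt14, its partner, measured 29.6 ± 2.86, 34.8 ± 6.24 and 37.5 ± 8.53 CPM (adjusted p = 0.286). Perp, a p63-regulated desmosome protein and the most abundant gene of the list, differed by 0.04 ± 0.10 (adjusted p = 0.887), and Itga6, a hemidesmosome integrin, by 0.13 ± 0.11 (adjusted p = 0.585). Bnc1 had 0 counts in the 9 libraries, Dlx3 had 1 and Dsg3 had 8. The number of list genes called at 90 against 30 days was 1 without 90-day sample 2 and 1 without 30-day sample 1, 0 without 90-day sample 3, and 7 without 90-day sample 1; it was 6 with DESeq2 and 3 with limma-voom. Myoepithelial cells share Krt5, Krt14, Ngfr and Trp63: the summed level of 9 myoepithelial markers was 344 to 474 CPM at 30 days, 506 to 551 at 60 days and 467 to 649 at 90 days, and their part in these differences was not tested.

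**Figure D2:**
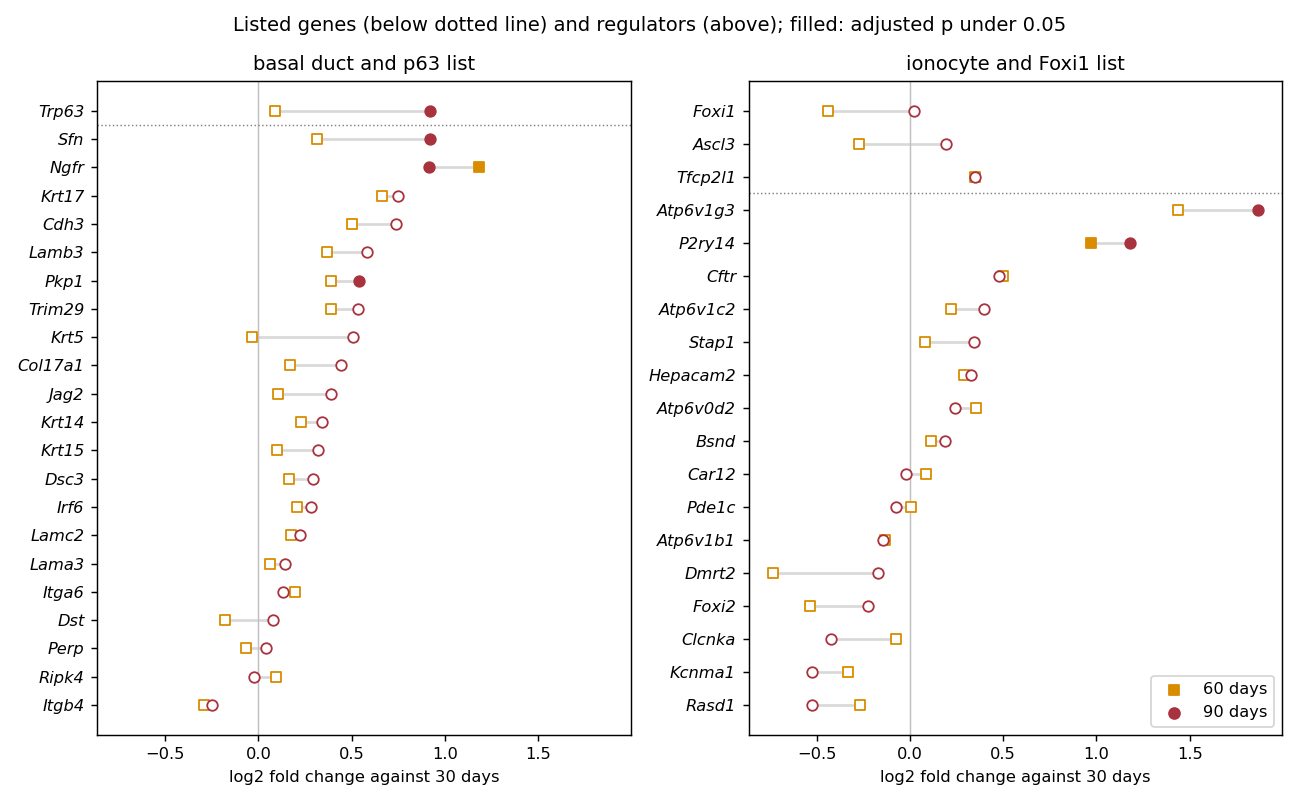
Log2 fold change against 30 days (horizontal axes) of the tested genes of the basal duct and p63 list (left) and the ionocyte and Foxi1 list (right, 1 gene not drawn), with the regulators above the dotted line; squares are 60 days, circles 90 days, and filled symbols passed an adjusted p of 0.05. On the left most 90-day circles lie right of 0 (median 0.34), and on the right they lie on both sides (median of the list -0.02).

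Kit encodes the receptor tyrosine kinase of intercalated duct progenitors, and Kitl encodes its ligand, stem cell factor. Kit (chromosome 5, 75574916 to 75656722, plus strand) measured 38.8, 36.1 and 31.6 CPM at 30 days, 31.7, 33.4 and 40.7 at 60 days and 50.2, 40.6 and 36.4 at 90 days. The groups overlapped in every comparison, and 90-day sample 1 was highest. Kit differed by -0.01 ± 0.13 between 60 and 30 days (95% interval -0.28 to 0.27, adjusted p = 0.990) and by 0.26 ± 0.13 between 90 and 30 days (interval -0.01 to 0.53, adjusted p = 0.327).

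Kitl (chromosome 10, 100015630 to 100100416, plus strand) measured 24.5, 31.0 and 25.5 CPM at 30 days, 23.8, 32.5 and 34.1 at 60 days and 32.3, 35.0 and 42.4 at 90 days. Every 90-day value lay above every 30-day value, with the 60-day values spread across both. The log2 difference of 0.44 ± 0.14 between 90 and 30 days did not pass (95% interval 0.13 to 0.74, adjusted p = 0.107). Its transcripts differ by an exon of 84 coding bases, present in Kitl-202 and skipped in Kitl-201, at chr10:100080857-100080940 on the plus strand of GRCm38. This exon holds the site at which the membrane-bound ligand is cut to release the soluble one, and is shown because the gene-level counts cannot tell the forms apart.
Skipped exon of Kitl: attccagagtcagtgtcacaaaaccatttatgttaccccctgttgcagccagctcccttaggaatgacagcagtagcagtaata

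The list of Kit pathway genes had median differences near those of all genes. Of the 22 listed, which include Kit and Kitl, 0 rose and 2 fell between 30 and 90 days, where 1.81% of all genes rose and 1.77% fell; the median log2 difference was -0.03 against 0.01 over all genes. With library-size scaling 1 rose and 0 fell. At an unadjusted p under 0.05 there were 4 of the 22 for 60 against 30 days and 3 for 90 against 60. For 90 against 30 days there were 6. The shares over all genes were 12.4%, 10.8% and 16.8%. Etv1, an ETS factor that acts downstream of Kit signalling in some cells, measured 177 ± 27.2 CPM at 30 days, 123 ± 4.32 at 60 days and 123 ± 15.2 at 90 days. It fell by 0.53 on the log2 scale by 60 days (SE 0.12, adjusted p = 0.0297) and was lower by a similar amount at 90 days (-0.52 ± 0.12, adjusted p = 0.0183). Gab1, a docking protein of receptor tyrosine kinases, fell from 31.6 ± 3.05 to 22.5 ± 0.687 CPM by 90 days (log2 -0.49 ± 0.11, adjusted p = 0.0176). With library-size scaling, which moves the median of all genes by 0.24 in this comparison, neither passed (Etv1 -0.29, adjusted p = 0.296; Gab1 -0.25, adjusted p = 0.415). Both calls at 90 days were also lost without 30-day sample 1, 90-day sample 2 or 90-day sample 3 (adjusted p between 0.0719 and 0.129 for Etv1, and between 0.0761 and 0.122 for Gab1). The Etv1 call at 60 days was lost with library-size scaling (-0.46, adjusted p = 0.238) and without any of 30-day samples 1 and 2, the 60-day samples and 90-day sample 3 (adjusted p 0.0504 to 0.182). Pik3r1 and Akt1, the most abundant pathway genes beside Etv1, differed by -0.02 ± 0.12 and 0.10 ± 0.10 at 90 against 30 days (adjusted p = 0.964 and 0.703).

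Intercalated duct genes that accompany Kit had a summed level that varied widely between libraries of the same time. The sums were 369 to 935 CPM at 30 days, 714 to 1369 at 60 days and 632 to 988 at 90 days. Among the genes given below, Smgc varied most for its mean and Elf5 least. Of 10 listed, 9 were tested and 0 passed in any comparison by edgeR. For 60 against 30, 90 against 60 and 90 against 30 days, 1.56%, 0.256% and 3.57% of all genes passed. In that order, 2, 0 and 3 had an unadjusted p under 0.05, beside 12.4%, 10.8% and 16.8% of all genes. The median log2 differences were 0.42, 0.14 and 0.40, against -0.002, 0.0008 and 0.01 over all genes, and 5, 7 and 5 of the 9 were positive. DESeq2 called 2 in the last comparison and limma-voom 0. Smgc, a secreted protein of young acinar and intercalated cells, measured 416 ± 266, 907 ± 395 and 547 ± 181 CPM. Elf5, an epithelial transcription factor, measured 105 ± 15.3, 92.2 ± 6.53 and 95.4 ± 12.2 CPM, and Wfdc18 72.3 ± 20.0, 96.6 ± 21.5 and 108 ± 26.0 CPM.

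Mast cells and melanocytes also carry Kit. The mast cell protease gene Tpsab1 had 0 counts in all 9 libraries, and Mcpt4 and Tpsb2 were at most 0.539 and 0.481 CPM. The 10 mast cell markers together measured 1.36 to 4.50 CPM, and the 5 melanocyte markers 0.703 to 1.84 CPM. Kit measured 31.6 to 50.2 CPM. These CPM are not scaled for gene length, so they do not rank the genes. The part of either cell type in the Kit values was not tested.

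Sox9, a transcription factor of distal epithelial progenitors and ducts, lies on the plus strand of chromosome 11, 112782224 to 112787760. It measured 93.7, 89.9 and 86.3 CPM at 30 days, 70.4, 77.2 and 78.0 at 60 days and 77.6, 71.1 and 75.9 at 90 days. All 3 values at 30 days were above all 6 later values, which overlapped with each other. The log2 differences from 30 days were -0.26 ± 0.10 at 60 days (adjusted p = 0.245) and -0.26 ± 0.10 at 90 days (adjusted p = 0.148), and neither passed. With library-size scaling the difference at 90 days was -0.04 (adjusted p = 0.908), so its size depends on the scaling.

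Sox2, which keeps acinar progenitors of the sublingual gland and embryonic bud cells in an uncommitted state, was near the limit of detection. Its gene is on chromosome 3, 34650405 to 34652461, plus strand, inside the longer transcript Sox2ot, with which it shares 0 exon bases. Reads numbered 0, 0 and 3 at 30 days, 0, 3 and 0 at 60 days and 9, 3 and 0 at 90 days. In the 5 libraries with 0 reads, a count of 0 allows up to 3 counts, or 0.125 to 0.213 CPM, a limit that covers counting error only. No fold is given, and differences in Sox2 were not detectable at this depth.

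Foxi1, Ascl3 and Tfcp2l1 were taken next as regulators of ion-transporting duct cells. Foxi1 is the forkhead factor at the head of the ionocyte programme, Ascl3 is a bHLH factor that marks a duct cell lineage in this gland, and Tfcp2l1 is a grainyhead-family factor of salivary and kidney ducts. Foxi1 (chromosome 11, 34204338 to 34208089, minus strand) measured 28.3, 40.4 and 31.9 CPM at 30 days, 23.8, 23.5 and 26.9 at 60 days and 30.5, 40.6 and 31.0 at 90 days. The 3 values at 60 days lay below all 6 others. The log2 difference was -0.44 ± 0.14 from 30 to 60 days (adjusted p = 0.163) and 0.46 ± 0.14 from 60 to 90 days (adjusted p = 0.231), and the 90-day and 30-day groups overlapped (0.02 ± 0.14, adjusted p = 0.962).

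Ascl3 (chromosome 7, 109727465 to 109731726, minus strand) measured 39.0, 43.2 and 44.4 CPM at 30 days, 31.4, 31.3 and 41.9 at 60 days and 41.9, 54.0 and 48.9 at 90 days. It was lowest at 60 days in 2 libraries, while 60-day sample 3 reached the other groups. Its log2 differences were -0.27 ± 0.13 from 30 to 60 days (adjusted p = 0.383) and 0.47 ± 0.13 from 60 to 90 days (adjusted p = 0.152). Without 60-day sample 3 the latter was 0.61 and passed (adjusted p = 0.0236). A contrast of 60 days with the mean of 30 and 90 days, which was not among the planned tests, gave -0.45 ± 0.12 for Foxi1 (adjusted p = 0.169) and -0.37 ± 0.11 for Ascl3 (adjusted p = 0.217); 0 of the 9 members passed it with edgeR and 4 had an unadjusted p under 0.05, where 0.256% of all genes passed, 0.0525% on the low side, and 9.45% had an unadjusted p under 0.05.

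The promoters of Foxi1 and Ascl3 are printed because the levels of the 2 genes varied together across libraries (Pearson 0.83). This was not the closest pair, as Ascl3 had 0.87 with Ly6a. The 250 bases before each start come from RefSeq on GRCm38.p6, on the strand of the gene, 5′ to 3′, for Foxi1 at chr11:34208090-34208339 and for Ascl3 at chr7:109731733-109731982, both minus. RefSeq windows matched 7 of the 10 members. Capitals mark the letters TGTTTA, one form of the forkhead core, or its reverse complement TAAACA.
Foxi1 promoter: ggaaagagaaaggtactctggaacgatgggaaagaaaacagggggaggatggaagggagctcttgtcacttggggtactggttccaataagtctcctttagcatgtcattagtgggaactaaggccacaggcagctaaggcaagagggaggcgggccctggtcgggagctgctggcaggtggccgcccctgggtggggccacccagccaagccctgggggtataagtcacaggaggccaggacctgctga
Ascl3 promoter: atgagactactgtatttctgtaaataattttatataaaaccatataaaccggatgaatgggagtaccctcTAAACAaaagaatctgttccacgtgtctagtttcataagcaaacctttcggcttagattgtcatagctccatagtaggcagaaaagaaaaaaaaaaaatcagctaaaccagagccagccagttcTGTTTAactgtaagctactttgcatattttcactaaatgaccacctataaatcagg

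The Ascl3 window held 2 matches, 180 and 56 bases before the start, and the Foxi1 window 0. Among the windows of the other members, a Prom1 window also held 2, 245 and 92 bases before its start, and the rest held 0. The same letters on either strand stand in 12.03% of all 32851 windows of this length. The E-box letters CANNTG, which read the same on both strands, had 1 match in the Ascl3 window and 2 in the Foxi1 window, and 66.217% of windows hold at least 1. A match is a run of letters, and binding was not measured.

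Tfcp2l1 (chromosome 1, 118627945 to 118685168, plus strand) had a different course. It measured 595, 636 and 654 CPM at 30 days, 672, 827 and 905 at 60 days and 817, 832 and 750 at 90 days. Every later value lay above every 30-day value. The log2 difference from 30 days was 0.35 ± 0.13 at 60 days (adjusted p = 0.230) and 0.35 ± 0.13 at 90 days (95% interval 0.08 to 0.61, adjusted p = 0.154), and neither passed with edgeR; DESeq2 called the second (adjusted p = 0.0440). Genes of granular convoluted ducts had higher levels at the same times. Of 9 listed genes, 8 rose by 60 days and 8 by 90 days, where 1.14% and 1.81% of all genes rose. Their summed levels were 22452 to 31538 CPM at 30 days, 48010 to 58288 at 60 days and 41435 to 59770 at 90 days. The 14 luminal duct genes together measured 2476 to 2634 CPM at 30 days, 2562 to 2700 at 60 days and 2604 to 2654 at 90 days. These ranges overlapped. Of the 13 luminal duct genes tested, 1 rose and 0 fell by 60 days, and 2 rose and 0 fell by 90 days. Over all genes 1.14% rose and 0.427% fell by 60 days, and 1.81% rose and 1.77% fell by 90 days. The part of either cell type in the Tfcp2l1 values was not tested.

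Of 21 genes in the ionocyte and Foxi1 list, which holds none of the 3 regulators, 17 were tested. From 30 to 60 days 1 rose and 0 fell, where 1.14% of all genes rose and 0.427% fell. From 30 to 90 days 2 rose and 0 fell, where 1.81% and 1.77% did. At an unadjusted p under 0.05 there were 7 and 10 of the 17, beside 12.4% and 16.8% of all genes, and the medians were 0.08 and -0.02. P2ry14, a receptor for UDP-sugars found on intercalated cells, measured 2.71 ± 0.465, 5.34 ± 0.487 and 6.17 ± 0.432 CPM in time order. It rose by 0.97 ± 0.22 on the log2 scale by 60 days (adjusted p = 0.0265) and by 1.18 ± 0.21 by 90 days (adjusted p = 0.00386). The call at 60 days was lost with limma-voom (adjusted p = 0.0581), with library-size scaling (adjusted p = 0.110), with the 6 samples of that comparison alone (adjusted p = 0.0547) and without any of 30-day sample 1, 30-day sample 2 or the 60-day samples (adjusted p 0.0559 to 0.135). Atp6v1g3, a proton pump subunit named here after its values were seen, rose from 0.466 ± 0.249 to 1.75 ± 0.710 CPM by 90 days (log2 1.87 ± 0.51, adjusted p = 0.0474). Its call was lost with limma-voom (adjusted p = 0.134) and without 30-day sample 1, 30-day sample 2, 60-day sample 2, 90-day sample 2 or 90-day sample 3 (adjusted p 0.0561 to 0.242).

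The 3 ionocyte transport genes described next did not have their lowest mean at 60 days. Cftr, the chloride channel, measured 13.1 ± 1.48, 18.6 ± 2.69 and 18.2 ± 2.68 CPM (90 against 30 days, adjusted p = 0.0842). Bsnd, the chloride channel subunit barttin, measured 32.4 ± 5.39, 35.1 ± 3.37 and 36.9 ± 4.01 CPM. Atp6v1b1, a proton pump subunit, measured 18.3 ± 0.476, 16.7 ± 2.60 and 16.5 ± 2.26 CPM. Foxi2, a relative of Foxi1, and Dmrt2 had their lowest means at 60 days, like Foxi1, with 16.3 ± 5.61, 11.3 ± 0.519 and 13.9 ± 2.41 CPM and 10.3 ± 2.50, 6.17 ± 0.198 and 9.07 ± 2.33 CPM; neither passed (60 against 30 days, adjusted p = 0.272 and 0.0961). The abundant list members Car12, Atp6v0d2 and Kcnma1 differed by -0.02 ± 0.11, 0.24 ± 0.10 and -0.52 ± 0.17 between 90 and 30 days, and none of the 3 passed (adjusted p = 0.955, 0.207 and 0.114). Cftr, Bsnd, Atp6v1b1, Foxi2 and Dmrt2 were named after their values were seen. Slc4a9 had 0 counts in the 9 libraries and Slc26a4 had 3, so these chloride exchangers of other ionocytes were at or near 0. Slc4a1, also in the list, is not described here.

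Prom1, a cholesterol-binding membrane protein of cell protrusions, lies on the minus strand of chromosome 5, 43993620 to 44102032. It measured 33.3, 44.8 and 36.2 CPM at 30 days, 50.0, 55.5 and 52.4 at 60 days and 42.5, 49.8 and 61.2 at 90 days. The 60-day values all lay above the 30-day ones, while 90-day sample 1 fell within the 30-day range. The log2 differences from 30 days were 0.46 ± 0.13 at 60 days (adjusted p = 0.105) and 0.42 ± 0.13 at 90 days (adjusted p = 0.0895), and neither passed. Prom1 shares 424 exon bases with the antisense gene Gm16401, which had 52 counts in all, and the use of strand in counting is not given in the sources used here.

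Ly6a, which encodes the surface protein Sca-1, is on the minus strand of chromosome 15, 74994877 to 74998031. It measured 66.1, 71.4 and 94.8 CPM at 30 days, 65.5, 51.2 and 71.2 at 60 days and 68.4, 109 and 86.1 at 90 days. Groups overlapped in every comparison, and the widest spread was among the 90-day libraries. Its log2 differences were -0.31 ± 0.19 from 30 to 60 days (adjusted p = 0.558), 0.49 ± 0.18 from 60 to 90 days (adjusted p = 0.366) and 0.18 ± 0.19 from 30 to 90 days (adjusted p = 0.700). Of all runs of 75 bases in its transcripts, 6.331% also occur in Ly6c1 or Ly6i, so part of its reads could be shared with these paralogs.

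Interferon induces Ly6a, and endothelium also carries it. Of 22 interferon-stimulated genes, 22 had a positive log2 difference between 60 and 90 days (median 0.56), and 1 passed, the immunity GTPase Iigp1 (1.10 ± 0.22, adjusted p = 0.0359), where 0.0920% of all genes rose; the call was lost with the 6 samples alone (adjusted p = 0.0726) and without 30-day sample 2 or 3, 60-day sample 2 or 3, or 90-day sample 1 or 2 (adjusted p 0.0579 to 0.277). Summed levels were 281 to 476 CPM at 30 days, 323 to 395 at 60 days and 386 to 597 at 90 days. The 14 endothelial genes together measured 156 to 165, 135 to 142 and 154 to 184 CPM, and between 60 and 90 days Sox18 and Egfl7, both endothelial regulators, rose by 1.62 ± 0.24 (adjusted p = 0.00342) and 0.94 ± 0.18 (adjusted p = 0.0261). The Egfl7 call was lost with the 6 samples alone (adjusted p = 0.0530) and without 30-day sample 2, 60-day sample 2 or 3, or 90-day sample 2 or 3 (adjusted p 0.0513 to 0.199). The abundant endothelial genes Plvap, Eng and Pecam1 differed by 0.09 ± 0.12, 0.16 ± 0.11 and 0.20 ± 0.13 in that step (adjusted p = 0.853, 0.651 and 0.598). The part of both lists in the Ly6a values was not tested. Within the Ly6 family 10 of 19 listed genes were tested, and Ly6e, an interferon-inducible member, rose from 473 ± 51.6 to 692 ± 129 CPM between 30 and 90 days (log2 0.55 ± 0.14, adjusted p = 0.0333); without 90-day sample 2 it was 0.43 (adjusted p = 0.210), and the call was likewise lost without 30-day sample 1, 30-day sample 2, 60-day sample 2 or 90-day sample 3 (adjusted p 0.0645 to 0.178). Ly6d and Ly6c1 differed by -0.45 ± 0.17 and -0.01 ± 0.16 (adjusted p = 0.170 and 0.982).

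Counted over the 9 tested members, 0 passed between 30 and 60 days, where 1.56% of all genes passed; DESeq2 and limma-voom also called 0, and 5 members had an unadjusted p under 0.05, against 12.4% of all genes. Groups did not overlap for 4 members, Sox9, Tfcp2l1, Foxi1 and Prom1, and for 16.9% of all genes. Between 60 and 90 days edgeR called 0 (0.256% of all genes), DESeq2 1, which was Trp63 (adjusted p = 0.0175), and limma-voom 0; 4 had an unadjusted p under 0.05 (10.8% of all genes). Only Trp63 and Foxi1 did not overlap in that comparison (15.9% of all genes). Between 30 and 90 days 1 passed (3.57% of all genes), 5 had an unadjusted p under 0.05 (16.8%), and 4, Trp63, Kitl, Sox9 and Tfcp2l1, did not overlap (23.2%). The test of any difference called 1 of the 9 and 3.29% of all genes. At 90 against 30 days 8 of 9 log2 differences were positive, beside 52.1% of all genes, and Sox9 was the exception. Their median was 0.26 against 0.01 over all genes. Of 11 acinar genes tested, 1 rose and 4 fell in this comparison, with a median of -0.47, and 10 had an unadjusted p under 0.05. Their summed levels were 457665 to 647828 CPM at 30 days and 311436 to 458574 at 90 days. The part of acinar cells in the member differences was not tested.

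**Figure D3:**
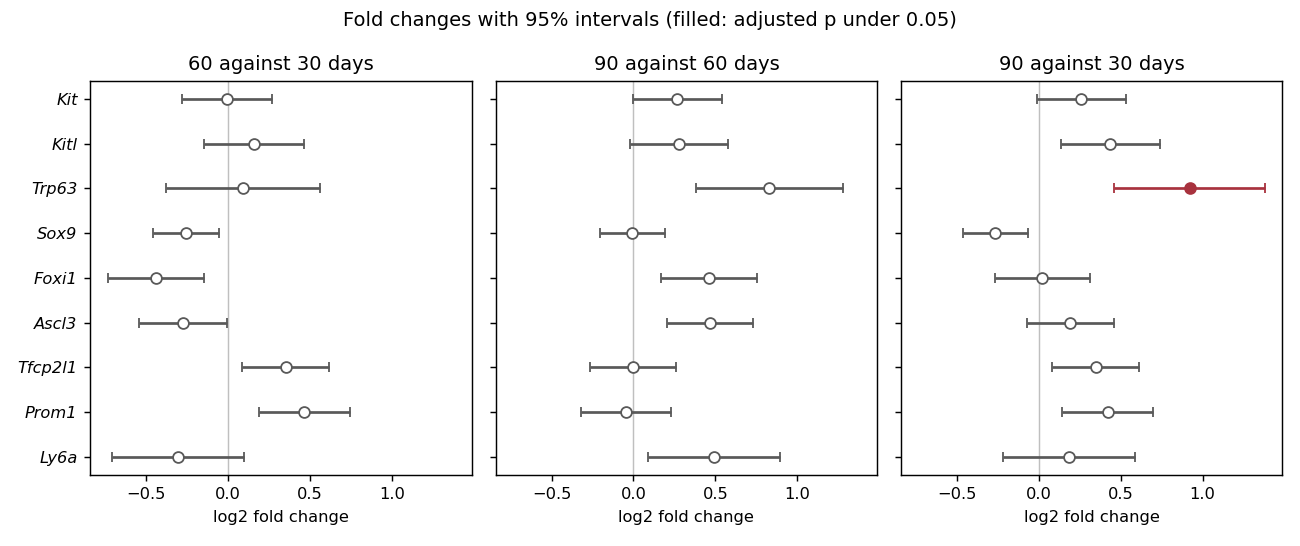
Log2 fold change of the 9 tested members in each pairwise comparison (horizontal axis), with 95% intervals from the fit as bars; the filled symbol passed an adjusted p of 0.05. Trp63 at 90 against 30 days (0.92, interval 0.46 to 1.38) is the single filled symbol, and Foxi1 and Ascl3 lie left of 0 at 60 against 30 days and right of 0 at 90 against 60 days.

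Between genes, levels were compared as CPM per kilobase of exon, averaged over the 9 libraries. Tfcp2l1 was highest at 78.7, followed by Ly6a at 63.1 and Ascl3 at 59.7, and these neighbours overlapped: Tfcp2l1 exceeded Ly6a in 7 of 9 libraries, and Ly6a exceeded Ascl3 in 4. Below a gap came Sox9 at 19.4 and Foxi1 at 13.1, whose ranges overlapped although Sox9 was higher in 8 of 9 libraries. Prom1 at 6.59, Kitl at 5.28 and Kit at 4.23 followed, with overlapping neighbours. On this scale the ligand Kitl exceeded its receptor Kit in 7 of 9 libraries, with exon lengths of 5.911 and 8.911 kb. In CPM without length scaling, Kit had the higher mean at each time (35.5, 35.3 and 42.4, against 27.0, 30.1 and 36.6). The order of Kit and Kitl thus depends on the length used. Trp63 at 1.80 lay below all of these in every library, and Sox2 at 0.0389 was last. Per kilobase, Ascl3 was thus above Foxi1 in every library. The exon length counts every annotated transcript, so a gene with many forms, such as Trp63, is set low by this scale.

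**Figure D4:**
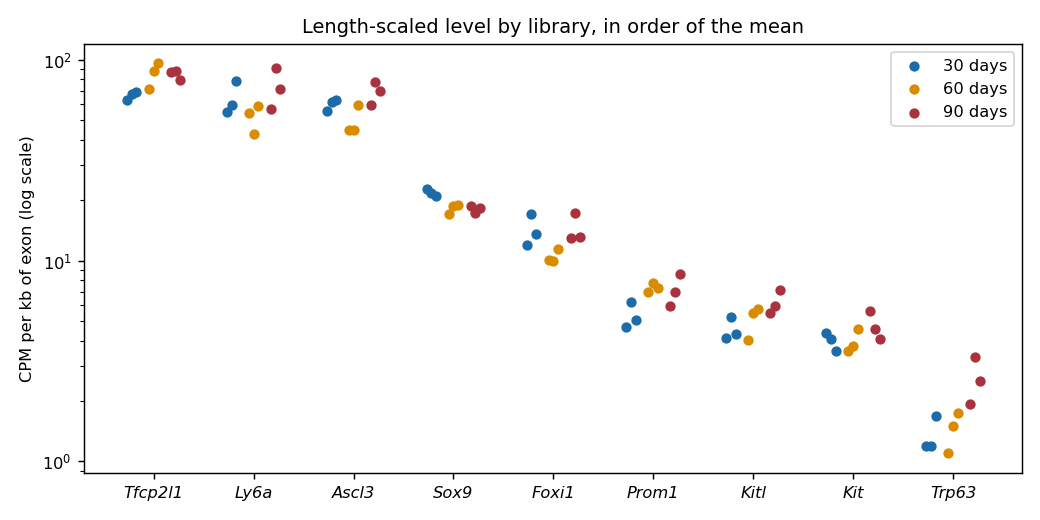
CPM per kilobase of exon (log axis) of 9 members in each library, coloured by days after irradiation and ordered by the mean over 9 libraries; Sox2, at 0 in 5 libraries, is not drawn. Gaps separate Ascl3 (59.7) from Sox9 (19.4), Foxi1 (13.1) from Prom1 (6.59) and Kit (4.23) from Trp63 (1.80).

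Over all pairs of tested members, correlations of log2 CPM across the 9 libraries ran from -0.72 to 0.87. They are given as descriptions, since the libraries share time points, scaling and tissue composition. Foxi1 and Ascl3 had a Pearson correlation of 0.83, and 0.66 after each time point's mean was removed. Ascl3 and Ly6a reached 0.87 (0.78 within times), and Trp63 and Ascl3 0.76 (0.80 within times); 90-day sample 2 held the highest value of Trp63, Ascl3, Foxi1 and Ly6a among the 90-day libraries. Kitl had 0.73 with Prom1 (0.79 within times), 0.73 with Trp63 (0.42 within times) and 0.66 with Tfcp2l1 (0.54 within times). Ly6a had 0.71 with Foxi1 and 0.69 with Trp63, so high values also linked members of different roles. Sox9 and Prom1 ran opposite, at -0.72, but -0.04 within times, so that their relation lay between the time points. The receptor Kit and its ligand Kitl had 0.38, and -0.02 within times.

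Searching 13019 genes of at least 1 CPM for the nearest pattern over the same 9 libraries gave Cited2, Rasal3 and Apobec3 for Trp63 (Pearson 0.97, 0.97 and 0.97) and Sept7, Tmx3 and Ube2l3 for Kitl (0.96, 0.95 and 0.95). Nearest to Sox9 were Slc19a2, Atp13a1 and Mms19 (0.97, 0.96 and 0.96), and nearest to Ascl3 were Ifi206, Inf2 and Chst12 (0.97, 0.95 and 0.95). Tfcp2l1 was matched by Gmcl1, Pdgfd and Slit2 (0.96, 0.96 and 0.96), Foxi1 by Gm30613, Nfkb1 and Tomm40 (0.94, 0.94 and 0.93), and Prom1 by Rpl30-ps10, Atg14 and Trim16 (0.96, 0.96 and 0.96). Kit had Gm42595, Nif3l1 and Gm48135 (0.93, 0.91 and 0.91), and Ly6a had Ppfia4, AU041133 and Cyth4 (0.96, 0.96 and 0.95). None of these neighbours is another member. With 9 libraries and 13019 genes, such values are the top of a long list and carry no test.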

How the data were processed

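The authors deposited raw read counts per gene for 54532 Ensembl identifiers, made with fastp, STAR and featureCounts on mm10, per the submitters' processing notes; versions, annotation and the use of strand are not given in the sources used here. Per the labels' protocols, RNA came from 4 sections of each gland, 50 µm thick. The titles gave the 3 groups, and 3 columns of the table match no sample here and were not used.

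Computed here: genes were filtered with filterByExpr in edgeR 4.0.16 (minimum count 10), scaled by TMM and fitted over all 9 libraries with a term for time (quasi-likelihood test, robust, R 4.3.3). Common biological coefficient of variation was 0.150. Intervals of fold changes are 95%. The script was tested on simulated data. Values of 1 gene of the ionocyte list are counted with the list and not reported here. Positions and exons came from GENCODE M21 (GRCm38), which matched 54409 identifiers. Figures used matplotlib.

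The members and lists were chosen with earlier results of these data known. Named genes were all 10 members; per list up to 3 genes with the smallest adjusted p under 0.05 for any difference and, for 8 of the lists, the 3 highest in mean CPM; and the 3 nearest patterns (log2 CPM, prior count 2). Of lists given beside a result by their sums, not every such gene is described. Alternatives were scaling by library size or by size factors of the DESeq2 type, the DESeq2 1.42.0 test, limma-voom (limma 3.58.1), no filter, at least 10 counts in every sample, the 6 samples of a contrast alone, each sample left out and the sample number as a block. Replicate libraries differed beyond counting error. Reads have no molecular identifiers, so limits from counts cover counting error only.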

Additional observations from a re-analysis of the deposited data

How the results depend on the processing

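With 3 samples a time and a call that several single libraries end, the member results rest mainly on their sizes and intervals; the causes of the shifts below were not tested. Genes called between 60 and 30 days were 238, and 90 with library-size scaling (79 higher and 11 lower, against 173 and 65), 376 with DESeq2 and 459 with no filter. Between 90 and 60 days they were 39 (14 higher, 25 lower), 28 with library-size scaling (19 and 9), 150 with DESeq2 and 354 with no filter. Between 90 and 30 days they were 544 (275 and 269), 440 with library-size scaling (406 and 34), 867 with DESeq2 and 1045 with no filter. For any difference they were 501, and 277, 847 and 1194 in that order. Leaving out 1 sample gave 73 (without 60-day sample 2) to 244, 16 (without 90-day sample 2) to 103 (without 60-day sample 3), 184 (without 30-day sample 1) to 703, and 220 to 683. Members called were 2, 4, 4 and 7 with no filter, beside 459, 354, 1045 and 1194 of the 27001 genes in that fit. With DESeq2 they were 0, 1, 2 and 2, beside 376, 150, 867 and 847 of 15224 genes. With limma-voom they were 0 in all 4 tests, beside 184, 47, 469 and 375 of 15224. At 90 against 30 days library-size scaling called 3 (Trp63, Kitl and Prom1), beside 440 of 15224. Leaving out 1 sample gave 0 to 0, 0 to 1, 0 to 2 and 0 to 2.

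The sample number as a replicate block gave 1, 1, 3 and 2 members called, beside 270, 92, 717 and 609 of 15224 genes. Same-numbered samples did not deviate together (1 of 9 pairs with a correlation over 0.1, range -0.06 to 0.19, against -0.21 to 0.19 for 18 other pairs), so the numbers were not taken to pair the samples.

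Differences near 0 changed sign. Kit at 60 against 30 days was 0.065 with library-size scaling, 0.0115 with no filter and 0.000144 with the block (-0.12 to 0.066 leaving out 1 sample). At 90 against 60 days, library-size scaling gave 0.16 for Sox9, 0.17 for Tfcp2l1 and 0.12 for Prom1; at least 10 counts in every sample gave 0.0032 for Sox9 and 0.0067 for Tfcp2l1, which was 0.0050 with limma-voom and 0.0063 with the block. Leaving out 1 sample gave -0.054 to 0.022 for Sox9, -0.12 to 0.085 for Tfcp2l1 and -0.19 to 0.065 for Prom1 there, -0.065 to 0.28 for Trp63 at 60 against 30 days, and -0.13 to 0.18 for Foxi1 and -0.011 to 0.35 for Ly6a at 90 against 30 days.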

Other observations

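Of 17 other genes used as stem and progenitor markers, 16 were tested, and 0 passed in a pairwise comparison with edgeR (3, 5 and 2 at an unadjusted p under 0.05 for 60 against 30, 90 against 60 and 90 against 30 days, beside 12.4%, 10.8% and 16.8% of all genes; DESeq2 called 0, 1 and 2, and limma-voom 0 in each). Cd44, a hyaluronan receptor of epithelial progenitors and acini, passed the test of any difference (adjusted p = 0.0457), at 133 ± 11.4, 143 ± 13.6 and 98.5 ± 19.4 CPM in time order (SD over 3 libraries). Lgr5, the receptor that marks intestinal stem cells, had 13 counts in the 9 libraries and was not tested.

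Among 27 regulators of salivary epithelial development, 25 were tested. At an unadjusted p under 0.05 there were 5 for 60 against 30 days, 6 for 90 against 60 and 8 for 90 against 30. Over all genes the shares were 12.4%, 10.8% and 16.8%. In the same order DESeq2 called 1, 1 and 2, and limma-voom 1, 1 and 0. With edgeR 1 passed in a pairwise comparison. Bhlha15 (Mist1), the factor that sets the secretory architecture of acinar cells, fell between 60 and 90 days, where 0.164% of all genes fell. It measured 365 ± 23.9, 511 ± 50.7 and 298 ± 42.3 CPM, a log2 difference of -0.78 ± 0.12 in that step (adjusted p = 0.00581). This gene no longer passed without 90-day sample 2 (-0.70, adjusted p = 0.0620) and with library-size scaling (-0.60, adjusted p = 0.130). Xbp1 and Ehf, the other abundant regulators, differed by -0.01 ± 0.12 and 0.00 ± 0.11 in the same step. Hmga2 had 0 counts in the 9 libraries and Sox11 had 4.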
